A study of Mus musculus with 6 samples.

Results

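The T cell receptor complex and its first signalling partners were followed through 10 genes in whole lungs of mice with and without Nogo-A and Nogo-B. The genes were the CD3 chains Cd3d, Cd3e and Cd3g, the co-receptors Cd4, Cd8a and Cd8b1, the kinases Lck and Zap70, the costimulatory receptor Cd28 and the interleukin-7 receptor Il7r. They were found by name among the probes of the array, where 18 of 41174 probes carried 1 of these names, and each gene is given by its brightest probe. All 10 were among the 20237 genes measured well enough to be compared, out of 27670 genes on the array.

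The lungs came from untreated male mice aged 8 weeks, 3 wild type (numbers 11, 12 and 13) and 3 knockouts that lack the longer reticulon isoforms Nogo-A and Nogo-B made from Rtn4 (numbers 1, 11 and 12). The design describes the 3 lungs of each group as individual biological replicates. The background strain, the making of the deletion and any littermate relation are not stated in the sources read here. RNA of each lung was labelled with Cy3 and hybridised to its own array of 60-base oligonucleotide probes.

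The T cell receptor recognises a peptide held by an MHC molecule, but its own antigen-binding chains have no signalling tail. The CD3 chains carry the signal into the cell, where Lck, brought close by CD4 or CD8, phosphorylates them and Zap70 docks on the phosphorylated tails. In the lung these genes mark T cells, in the blood vessels, in the tissue and in lymphoid aggregates near the airways. They are not all confined to T cells, as given below for Cd4 and Il7r.

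The sequences of 5 probes are shown because the results turn on which transcript each one reads. The probes of Cd3d (mm7 chr9:44920433-44920664) and Cd3g (mm7 chr9:44907978-44908562) span 232 and 585 bases of the genome, more than their 60 bases, which places each across an intron. The probe of Cd4 lies at mm7 chr6:124894079-124894138. For the pair of Cd8b1 probes the first 30 of 60 bases are shown.
Cd3d: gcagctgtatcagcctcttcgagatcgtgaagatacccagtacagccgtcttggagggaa
Cd3g: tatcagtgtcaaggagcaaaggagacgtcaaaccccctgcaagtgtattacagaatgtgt
Cd4: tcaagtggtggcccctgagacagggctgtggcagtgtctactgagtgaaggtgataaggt
Cd8b1, placed on chromosome 5: gccatgatccagggaatgaaaagaaatttg
Cd8b1, placed on chromosome 6: ggaccctggagaagactgcaaatcctcaca
The brightest probe named Cd8b1 is placed by the array files at mm7 chr5:114364254-114364313 on the minus strand. A probe lying 1962 bases away on that strand is one for Mlec, which encodes malectin, a sugar-binding protein of the endoplasmic reticulum. RefSeq (GRCm38) has Cd8b1 on chromosome 6, 35934 bases from Cd8a, and the other Cd8b1 probe is placed at mm7 chr6:71355005-71355063. The longest run of bases that the pair of full-length probes share is 9, and they hold the same base at 14 of 60 positions. Cd8b1 is therefore given by both probes throughout. The counts below use the brightest one unless the chromosome 6 probe is named.

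Signals are given on the log2 scale with each array set to its own 75th percentile, so 0 is the signal at that percentile, and a difference of 1 is a doubling. Probes differ in how well they bind, so only differences between lungs are compared, never levels between genes. From 68.9% to 78.0% of probes per array stood well above background, and precision is limited by having 6 arrays. The AK047982 probe within Rtn4 lay between -3.13 and -2.36 in the 3 wild-type lungs, well above background in each. In the 3 knockout lungs it lay between -8.53 and -8.12, well above background in none. The brightest Rtn4 probe read 1.59, 1.53 and 2.28 in wild type 11, 12 and 13. Its values were 1.01, -0.79 and -1.87 in knockout 1, 11 and 12, and it was well above background on all 6 arrays. Scan day 1 held wild type 13 and knockout 1 on slide 1, and knockout 11 alone on slide 2. Scan day 2 held wild type 11 and 12 with knockout 12, all on slide 3. Over the genes, arrays sharing a day correlated at 0.972 to 0.994, and those of different days at 0.9502 to 0.965. Slide and scan day of the day 2 arrays cannot be told apart. Since both days held both genotypes, differences are also given blocked by scan day and for either day alone.

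The 3 CD3 chains did not share 1 pattern over the lungs. Cd3d and Cd3g were each higher in all 3 knockout lungs than in any wild-type lung, whereas Cd3e was not. None of the 3 differences passed the adjusted threshold of 0.05 in limma. In whole lung a larger number of T cells and more RNA per T cell cannot be told apart.

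Cd3d, the CD3 delta chain, measured -1.12, -0.94 and -0.95 in wild type 11, 12 and 13, and -0.19, -0.67 and -0.63 in knockout 1, 11 and 12. The wild-type lungs lay close together, every knockout lung lay above them, and knockout 1 stood highest. The log2 difference was 0.50 (SE 0.19, 95% confidence interval 0.03 to 0.97), or 1.42-fold, with an adjusted p of 0.9997 in limma and an unadjusted p of 0.0395. Blocked by scan day it was 0.46 (SE 0.19), with an adjusted p of 0.9994 in limma and an unadjusted p of 0.0552, and by day it was 0.52 on day 1 and 0.40 on day 2. Without knockout 1 it was 0.35, and the unadjusted p in limma was 0.105. Without wild type 11, 12 or 13 the difference was 0.45, 0.54 or 0.53, and its unadjusted p was 0.128, 0.0853 or 0.0587 in limma.

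Cd3g, the CD3 gamma chain, measured -1.67, -1.47 and -1.99 in wild type 11, 12 and 13, and -1.25, -1.45 and -1.19 in knockout 1, 11 and 12. The groups did not overlap, although the gap was narrow between knockout 11 and wild type 12. The difference was 0.42 (SE 0.20, 95% confidence interval -0.06 to 0.90), or 1.33-fold, with an adjusted p of 0.9997 in limma and an unadjusted p of 0.0781. Blocked by scan day it was 0.51 (SE 0.16), with an adjusted p of 0.9994 in limma and an unadjusted p of 0.0210. It was 0.64 on day 1 and 0.38 on day 2.

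Cd3e, the CD3 epsilon chain, which pairs with both of the other chains, measured -3.44, -3.46 and -2.80 in wild type 11, 12 and 13, and -3.02, -4.18 and -3.09 in knockout 1, 11 and 12. The groups overlapped, with wild type 13 the highest lung and knockout 11 the lowest. The difference was -0.20 (SE 0.38, 95% confidence interval -1.12 to 0.72). It changed sign between the days, at -0.80 within day 1 and 0.36 within day 2, and without knockout 11 it was 0.18. With slide as a random block it was -0.01. A further Cd3e probe was well above background on no array.

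Over the 6 lungs Cd3d correlated at 0.70 with Cd3g and at 0.11 with Cd3e, and Cd3g correlated at -0.19 with Cd3e. The lungs that gave Cd3e its extremes also gave Cd4 its extremes, and that pair correlated at 0.94, the highest of the 45 pairs of members. The median over the pairs was 0.28. These correlations rest on 6 arrays that share scan days and scaling, and they describe these lungs.

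**Figure D1:**
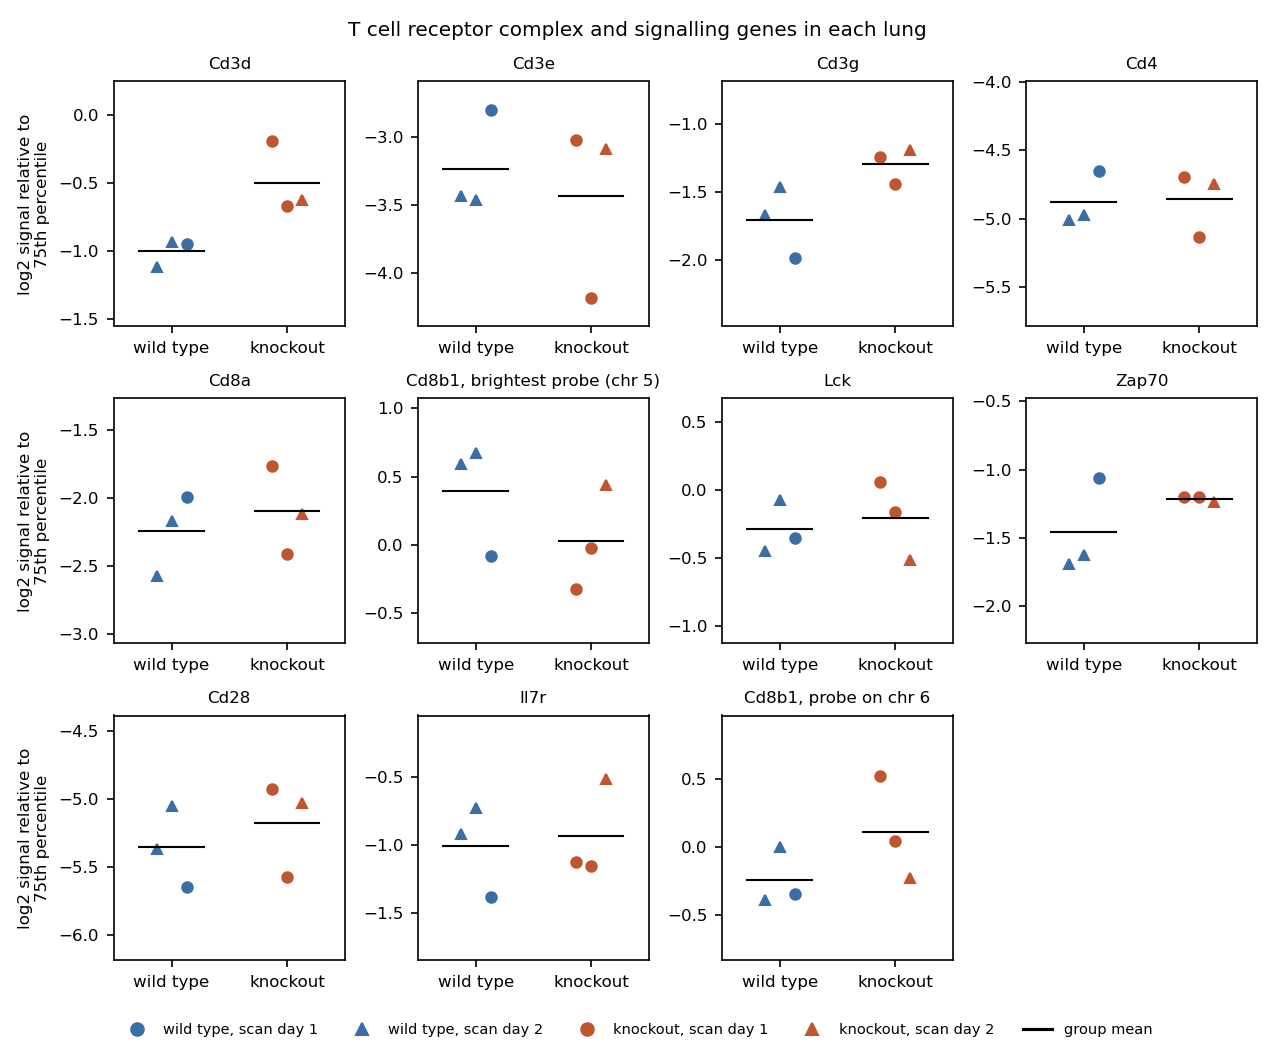
Log2 signal relative to the 75th percentile of the array (y axis) of each gene in the 6 lungs, wild type in blue and knockout in orange, with circles for scan day 1, triangles for scan day 2 and a bar for the group mean of 3 lungs. Every panel spans the same number of log2 units. Only in the panels of Cd3d and Cd3g do all knockout lungs lie above all wild-type lungs, and the pair of Cd8b1 panels run in opposite directions.

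The 3 CD3 genes are neighbours on chromosome 9, within 40092 bases in RefSeq (GRCm38.p6). Cd3g and Cd3d are transcribed away from each other from start sites 1355 bases apart, and Cd3e, on the strand opposite to Cd3d, ends 11682 bases beyond the end of Cd3d. The 250 bases before each start site are shown to set the divergent pair beside Cd3e, with matches in capitals to short motifs of factors known in T cells.
Cd3d (chr9:44981536-44981785, plus strand): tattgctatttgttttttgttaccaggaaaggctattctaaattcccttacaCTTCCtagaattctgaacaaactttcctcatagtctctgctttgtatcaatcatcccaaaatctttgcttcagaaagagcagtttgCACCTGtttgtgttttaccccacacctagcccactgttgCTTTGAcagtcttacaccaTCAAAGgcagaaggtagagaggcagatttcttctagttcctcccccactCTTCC
Cd3g (chr9:44980432-44980681, minus strand): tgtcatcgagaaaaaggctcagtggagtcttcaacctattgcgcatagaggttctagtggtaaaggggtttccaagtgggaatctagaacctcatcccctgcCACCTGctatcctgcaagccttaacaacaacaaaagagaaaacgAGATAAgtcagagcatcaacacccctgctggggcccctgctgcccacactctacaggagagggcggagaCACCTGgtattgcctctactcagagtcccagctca
Cd3e (chr9:45009612-45009861, minus strand): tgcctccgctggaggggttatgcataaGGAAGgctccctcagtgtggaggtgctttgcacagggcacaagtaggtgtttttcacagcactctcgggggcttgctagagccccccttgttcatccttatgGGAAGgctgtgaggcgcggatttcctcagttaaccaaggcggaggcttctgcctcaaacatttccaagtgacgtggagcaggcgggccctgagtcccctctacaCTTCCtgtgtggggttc
Matches were sought on both strands, none overlapped, and each share is of 32851 promoter windows of the same length. The ETS factors were sought by the letters GGAAG, which 64.1% of windows held, and the Cd3d window had 2 matches and the Cd3e window 3. The TCF/LEF factors were sought by CTTTGA, held by 13.8% of windows, with 2 matches in Cd3d. The E-box was sought by CAGNTG, held by 44.8% of windows, with 1 match in Cd3d and 2 in Cd3g. The GATA factors were sought by the letters AGATAA, found in 9.99% of windows, with 1 match in Cd3g. The RUNX factors were sought by TGTGGT, present in 14.0% of windows, with 0 matches in the 3 CD3 windows. A match describes the letters in the window and is not a binding site. Windows were found for 7 of the 10 genes.

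The antigen-binding chains of the receptor were read by 16 probes whose names begin with Tcra, Tcrb or Tcrg, of which 12 were well above background on at least 3 arrays. Of these 12, 11 were higher in the knockout by any amount, where 54.5% of all genes were. An unadjusted p of 0.05 in limma was reached by 0 of them, against 0.954% of all genes, and the median difference was 0.25. The median was 0.30 blocked by scan day, 0.31 on day 1 and 0.28 on day 2. Single probes were less level across the days. The tested alpha chain probes ran from 0.39 to 0.64 on day 1 and from -0.13 to 0.06 on day 2. Several of these probes lie in the same transcript, so they are not separate measurements of 12 genes. The smallest p, 0.0668 unadjusted in limma, was that of a beta chain probe for U07661 (Tcrb-V13, mm7 chr6:41479327-41479386). It measured 0.77, 1.04 and 0.64 in wild type 11, 12 and 13 and 1.39, 1.16 and 1.15 in knockout 1, 11 and 12. The difference was 0.42 (SE 0.19) between groups that did not overlap, as held for 2.73% of all genes in the higher direction. Next came another beta chain probe, for M31648, at 0.55 (SE 0.26), and the gamma chain probes for X00697 at 0.52 (SE 0.28) and K02899 at 0.42 (SE 0.24). These gamma chain probes differed by 0.04 and 0.08 on day 1 and by 1.13 and 0.94 on day 2. Knockout 12 was the highest lung for both.

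The comparison of the helper and cytotoxic lineages rests on the co-receptors. Cd4, which binds MHC class II, measured -5.01, -4.98 and -4.65 in wild type 11, 12 and 13, and -4.69, -5.13 and -4.74 in knockout 1, 11 and 12. The groups lay on top of each other. The difference was 0.02 (SE 0.20, 95% confidence interval -0.47 to 0.52), with -0.26 within day 1 and 0.25 within day 2, and its sign changed under quantile normalization (-0.05) and median scaling (-0.03). The Cd4 probe was dim, at a mean signal of 67.7, though well above background on all 6 arrays. A dimmer Cd4 probe, well above background on 2 arrays and not tested, differed by -0.10. Macrophages and dendritic cells can also carry Cd4.

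Cd8a, the alpha chain of CD8, which binds MHC class I, measured -2.58, -2.17 and -1.99 in wild type 11, 12 and 13, and -1.76, -2.41 and -2.12 in knockout 1, 11 and 12. Knockout 1 was the highest lung and wild type 11 the lowest, and the other lungs were mixed. The difference was 0.15 (SE 0.25, 95% confidence interval -0.46 to 0.76), with -0.09 within day 1 and 0.25 within day 2. The other Cd8a probes tested gave 0.31 (SE 0.29) for AK088414 and -0.16 (SE 0.20) for AK088128.

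The Cd8b1 probe placed on chromosome 5 measured 0.59, 0.67 and -0.08 in wild type 11, 12 and 13, and -0.33, -0.03 and 0.44 in knockout 1, 11 and 12. The 3 lungs of day 2 were the highest, whatever their genotype, and day 2 exceeded day 1 by 0.66 with genotype in the model, with an adjusted p of 0.0548 in limma and an unadjusted p of 0.00636. The genotype difference was -0.37 (SE 0.30, 95% confidence interval -1.09 to 0.36), and -0.15 (SE 0.15) blocked by scan day. It was -0.09 on day 1 and -0.20 on day 2.

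The Cd8b1 probe placed on chromosome 6, where the gene lies, measured -0.39, 0.00 and -0.34 in wild type 11, 12 and 13, and 0.52, 0.05 and -0.23 in knockout 1, 11 and 12. Knockout 1 was the highest lung, and the groups overlapped through wild type 12 and knockout 12. The difference was 0.36 (SE 0.25, 95% confidence interval -0.24 to 0.96), with an adjusted p of 0.9997 in limma and an unadjusted p of 0.196. It was 0.30 blocked by scan day, 0.63 on day 1 and -0.03 on day 2. The pair of Cd8b1 probes correlated at -0.56 over the 6 arrays. The chromosome 6 probe correlated at 0.86 with Cd3d, 0.89 with Lck and 0.58 with Cd8a. The chromosome 5 probe correlated at -0.68 with Cd3d, -0.45 with Lck and -0.59 with Cd8a, and at 0.74 with the brightest Mlec probe, whose genotype difference was -0.16.

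The genotype difference of each CD8 gene was set against that of Cd4 by taking the log2 difference between the genes in each lung. Cd8a moved by 0.13 more than Cd4, with SDs over 3 lungs of 0.19 in the wild type and 0.16 in the knockout (two-sided exact permutation test, p = 0.5). Cd8b1 moved by -0.39 relative to Cd4 by its chromosome 5 probe (exact permutation p = 0.5) and by 0.33 by its chromosome 6 probe (exact permutation p = 0.3). Cd8b1 relative to Cd8a gave -0.51 and 0.21 by the same probes, at exact permutation p of 0.4 and 0.5. All 5 adjusted p over these 5 comparisons were 0.5, and 3 lungs against 3 cannot give an exact p below 0.1. The direction of Cd8b1 against Cd4 thus depended on the probe, and only the chromosome 6 probe is placed where the gene lies. The difference in change between the lineages was within the spread of the lungs.

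**Figure D2:**
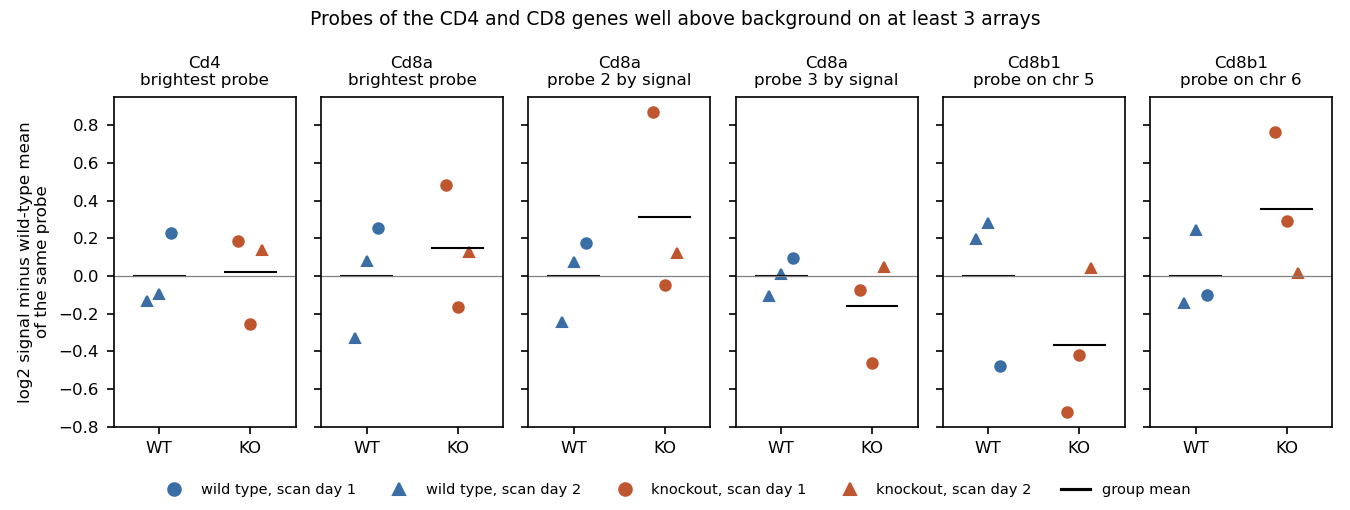
Log2 signal of each tested probe of Cd4, Cd8a and Cd8b1 minus the wild-type mean of the same probe (y axis), for 3 wild-type (WT, blue) and 3 knockout (KO, orange) lungs, with circles for scan day 1, triangles for scan day 2 and bars for group means. The knockout means run from -0.37 for the Cd8b1 probe on chromosome 5 to 0.36 for the one on chromosome 6.

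The kinases downstream of the receptor showed small differences. Lck, the Src family kinase bound to CD4 and CD8, measured -0.45, -0.07 and -0.35 in wild type 11, 12 and 13, and 0.06, -0.16 and -0.51 in knockout 1, 11 and 12. The highest and the lowest lung were both knockouts. The difference was 0.09 (SE 0.22, 95% confidence interval -0.44 to 0.61), with 0.30 within day 1 and -0.25 within day 2.

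Zap70, the kinase that docks on the phosphorylated CD3 tails, measured -1.70, -1.63 and -1.06 in wild type 11, 12 and 13. The knockout lungs were nearly level at -1.20, -1.20 and -1.24, inside the range of the wild type, whose SD was 0.35 against 0.02 in the knockout. The difference was 0.25 (SE 0.22, 95% confidence interval -0.28 to 0.77), with -0.14 within day 1 and 0.42 within day 2. Wild type 13, the only wild-type lung of day 1, set the top of this range. Without it the difference was 0.45, at an unadjusted p of 0.0296 in limma and an adjusted p of 0.655. That fit set wild-type lungs of day 2 alone against knockouts of both days, so it cannot separate genotype from day. With all lungs and blocked by scan day, the difference was 0.14 (SE 0.18). Day 2 minus day 1 was -0.32 with genotype in the model (unadjusted p of 0.125 in limma).

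Cd28, the receptor for the costimulatory ligands CD80 and CD86, measured -5.36, -5.05 and -5.65 in wild type 11, 12 and 13, and -4.92, -5.58 and -5.03 in knockout 1, 11 and 12. The groups overlapped over most of their range. The difference was 0.18 (SE 0.26, 95% confidence interval -0.45 to 0.80), with 0.40 within day 1 and 0.18 within day 2.

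Il7r, the receptor chain through which interleukin-7 keeps naive and memory T cells alive, measured -0.92, -0.73 and -1.38 in wild type 11, 12 and 13, and -1.12, -1.15 and -0.52 in knockout 1, 11 and 12. As with the chromosome 5 probe of Cd8b1, the lungs of day 2 were the 3 highest, by 0.59 with genotype in the model (unadjusted p of 0.00659, adjusted p of 0.0560 in limma). The genotype difference was 0.08 (SE 0.27, 95% confidence interval -0.58 to 0.73), and 0.27 (SE 0.13) blocked by scan day. It was 0.24 on day 1 and 0.31 on day 2. A second Il7r probe gave -0.16 (SE 0.26). Innate lymphoid cells also carry Il7r.

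Counted together, 0 of the 10 members passed the adjusted threshold of 0.05 in limma, as did 0 of all 20237 genes (0%), while 193 of all genes (0.954%) reached an unadjusted p of 0.05. At that unadjusted level 1 of the 10, Cd3d, was higher, where 0.336% of all genes were, and 0 were lower, where 0.618% were. By any amount 8 of 10 were higher in the knockout, against 54.5% of all genes, or 9 of 10 with the chromosome 6 probe of Cd8b1. Groups did not overlap in the higher direction for 2 of 10, against 2.73% of all genes, and in the lower direction for 0, against 1.46%. Blocked by scan day 1 of 10, Cd3g, was higher at the unadjusted level, against 0.939% of all genes, and 0 were lower, against 1.25%. Within both days 4 of 10 were higher (Cd3d, Cd3g, Cd28 and Il7r), against 22.1%, and 1 was lower, the chromosome 5 probe of Cd8b1, against 13.8%. The difference between days reached the unadjusted level for 2 of 10, against 27.6% of all genes.

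The median difference of the 10 genes was 0.12, against 0.02 over all genes. It was 0.11 blocked by scan day, 0.07 on day 1 and 0.28 on day 2, where all genes had medians of 0.03, -0.04 and 0.09. With the chromosome 6 probe of Cd8b1 these 4 medians were 0.16, 0.21, 0.27 and 0.28. Of the 18 probes 14 were tested, and in all 3 genes with several tested probes (Cd8a, Cd8b1 and Il7r) the probes differed in sign. For Cd8b1 this counts the chromosome 5 probe, which is placed away from the gene.

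**Figure D3:**
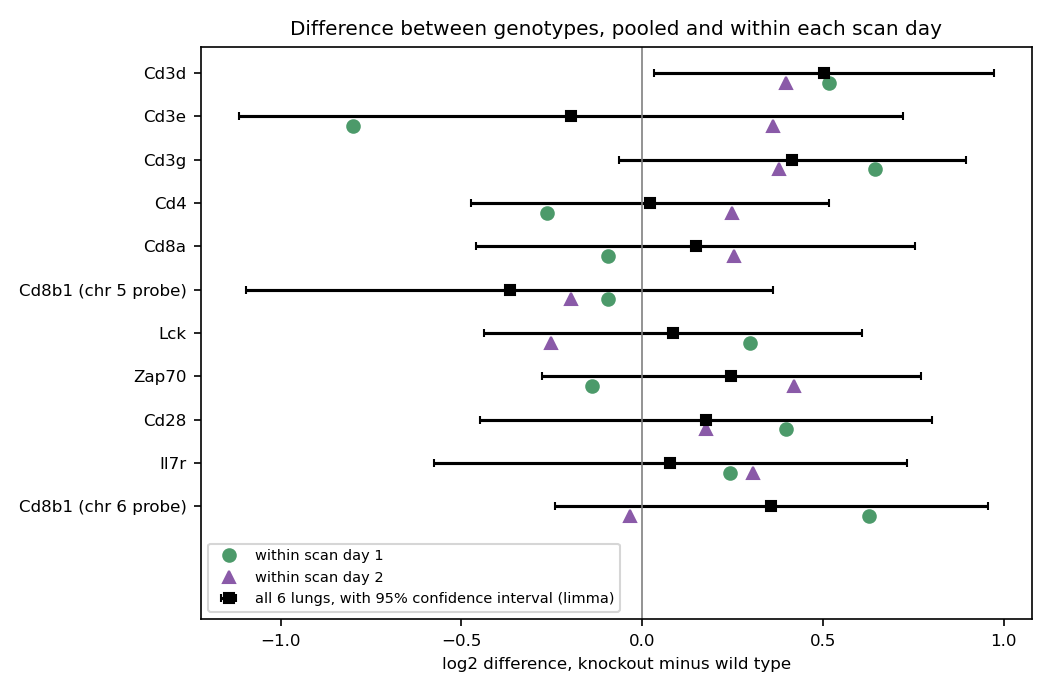
Log2 difference, knockout minus wild type (x axis), of each gene over all 6 lungs (squares, bars are 95% confidence intervals from limma), within scan day 1 (green circles) and within scan day 2 (purple triangles). The interval lies above 0 for Cd3d alone, from 0.03 to 0.97, and Cd3e, Cd4, Cd8a, Lck, Zap70 and the chromosome 6 probe of Cd8b1 change sign between the days.

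The knockout lungs did not share 1 level. Relative to the wild-type mean of each gene, the median of the 10 genes was -0.12, 0.15 and -0.00 in wild type 11, 12 and 13, and 0.30, -0.16 and 0.18 in knockout 1, 11 and 12. Knockout 1 exceeded every wild-type lung for 5 genes, knockout 12 for 4 and knockout 11 for 2. Knockout 1 was the highest of all lungs for Cd3d, Cd8a, Lck and Cd28, and wild type 13 for Cd3e, Cd4 and Zap70. Knockout 11, which holds the lowest values of Cd3e and Cd4, thus lay inside or below the wild-type range for 8 of the 10 genes, Cd3d and Cd3g being the exceptions. It was the only lung on slide 2, so lung and slide cannot be told apart for knockout 11.

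Of 27 genes of receptor-proximal signalling 15 were higher and 12 lower by any amount, where 54.5% of all genes were higher. An unadjusted p of 0.05 in limma was reached by 0 of them, against 0.954% of all genes, and their median was 0.07. The median was 0.03 blocked by scan day, 0.17 on day 1 and -0.11 on day 2. Sit1, a transmembrane adaptor that dampens receptor signals, differed by 0.37 (SE 0.16), and Themis, a regulator of receptor signalling in developing T cells, by -0.55 (SE 0.30). Both were without overlap, as held for 2.73% of all genes in the higher and 1.46% in the lower direction. Trat1, an adaptor that associates with the receptor, differed by 0.52 (SE 0.34), and Lcp2, the adaptor SLP-76, by -0.42 (SE 0.27).

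The smallest p among the genes examined lay with a costimulatory receptor. Slamf1, a self-binding receptor of activated T cells and other leukocytes, measured -1.98, -2.16 and -2.17 in wild type 11, 12 and 13, and -3.05, -3.09 and -3.29 in knockout 1, 11 and 12. Both groups were tight and far apart. The difference was -1.05 (SE 0.16), or 2.06-fold lower. Its unadjusted p was 5.97e-04, and after adjustment over all genes in limma the adjusted p was 0.9997. It was -1.07 blocked by scan day, -0.90 on day 1 and -1.23 on day 2. A dimmer Slamf1 probe for NM_013730, well above background on 3 arrays, differed by -0.77 between groups that overlapped.

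The list of costimulatory and checkpoint receptors and ligands to which Slamf1 belongs had 10 of 16 tested genes higher and 6 lower, and a median of 0.18. At an unadjusted p of 0.05 in limma it had 1 gene in each direction. Over all genes 54.5% were higher by any amount, and 0.336% were higher and 0.618% lower at that p. The median of the list was 0.18 blocked by scan day, 0.06 on day 1 and 0.15 on day 2. The gene that was higher was Tnfrsf9, the activation receptor 4-1BB, at 1.16 (SE 0.46), with unadjusted p of 0.0437 and adjusted p of 0.9997, and knockout 11 stood apart at -3.23 against -4.73 and -4.68 in knockout 1 and 12. Cd27, a costimulatory receptor of the same family, differed by 0.51 (SE 0.26), and Cd80, a ligand of CD28 on antigen-presenting cells, by -1.05 (SE 0.53). Ctla4 and Cd40lg were well above background on no array.

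Further lists of T cell genes held no gene at an unadjusted p of 0.05 in limma, which 0.954% of all genes reached. Over all genes 54.5% were higher by any amount, with a median difference of 0.02. Of 16 genes of interleukin-7 and common gamma chain signalling, Il7r left aside, 8 were higher and 8 lower with a median of 0.04 (0.21 on day 1 and -0.12 on day 2), and Stat5a, the factor activated by these receptors, differed by 0.25 (SE 0.18). Of 17 T lineage transcription factors 14 were higher with a median of 0.10 (0.28 on day 1 and 0.09 on day 2), among them Tcf7 at 0.33 (SE 0.17), Ikzf3 at 0.39 (SE 0.23), Eomes at 0.32 (SE 0.21) and Tox at 0.47 (SE 0.30). Foxp3, the factor of regulatory T cells, was well above background on no array. Of 5 genes of naive T cell homing 2 were higher with a median of -0.05 (0.17 on day 1 and -0.23 on day 2), with Ccr7, the receptor that guides cells into lymphoid tissue, at 0.61 (SE 0.26). Of 14 cytotoxic effector genes 10 were higher with a median of 0.10, which was 0.04 blocked by scan day and turned from 0.34 on day 1 to -0.19 on day 2. The chemokine Ccl5 stood at 0.43 (SE 0.22), with 0.84 on day 1 and 0.04 on day 2.

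**Figure D4:**
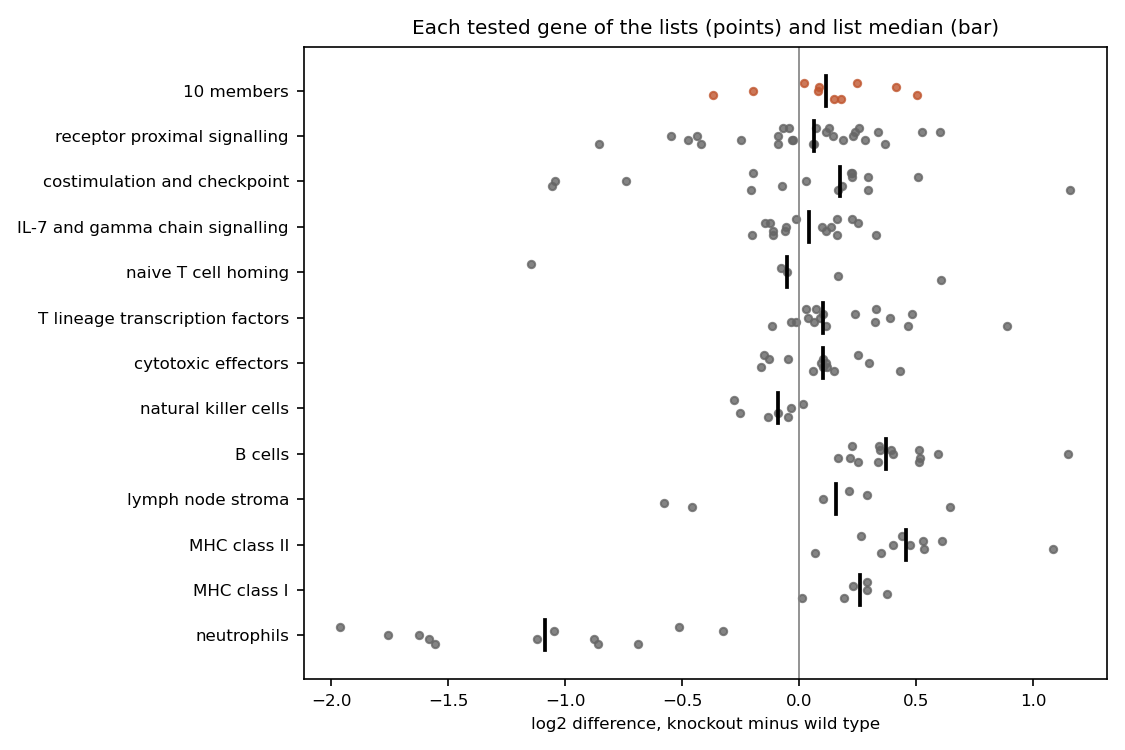
Log2 difference, knockout minus wild type (x axis), of each tested gene (points) in the 10 members and in lists of related genes and cell type markers (rows), with the list median as a bar. The points of the T cell lists lie on both sides of 0, all 14 B cell and all 10 MHC class II points lie above 0, and all 12 neutrophil points lie below 0.

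Markers of other cells are given beside these genes, none past the adjusted threshold in limma, and their part in the differences of Cd3d and Cd3g was not tested. Over all genes 54.5% were higher by any amount. At an unadjusted p of 0.05 in limma 0.336% were higher and 0.618% lower. All 14 B cell markers were higher by any amount, with a median of 0.37 (0.28 blocked by scan day, 0.08 on day 1 and 0.49 on day 2) and 0 at an unadjusted p of 0.05 in limma. Their summed signal, in multiples of the 75th percentile of the array, ran from 7.29 to 9.76 in the wild type and from 8.56 to 13.7 in the knockout. All 10 genes of MHC class II presentation were higher with a median of 0.45 (0.42 blocked by scan day, 0.32 on day 1 and 0.58 on day 2). Their sums were 91.4 to 106 in the wild type and 112 to 142 in the knockout. Such a sum is weighted toward the brightest probes, here those of Cd74, which differed by 0.07, and H2-Ab1, and does not speak for each gene. H2-Ab1 and H2-Eb1, chains of the molecules that CD4 T cells recognise, differed by 0.53 (SE 0.20) and 0.47 (SE 0.19), at unadjusted p of 0.0394 and 0.0461 in limma and an adjusted p of 0.9997. All 6 genes of MHC class I presentation were higher with a median of 0.26 (0.13 blocked by scan day, 0.22 on day 1 and 0.085 on day 2), at sums of 186 to 222 in the wild type and 219 to 294 in the knockout.

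Of 6 tested genes of lymph node stroma 4 were higher and 2 lower by any amount, with a median of 0.16 that was 0.05 blocked by scan day, -0.15 on day 1 and 0.28 on day 2. Of these the chemokine Ccl19, which draws cells bearing CCR7, differed by 0.64 (SE 0.25, unadjusted p of 0.0426, adjusted p of 0.9997 in limma), at 1.21 on day 1 and 0.23 on day 2. Its groups did not overlap, as held for 2.73% of all genes in the higher direction. Chst4, which modifies the sugars of lymph node vessels, differed by -0.58 (SE 0.60), the vessel adhesion molecule Madcam1 by -0.46 (SE 0.44), and Lta, a lymphotoxin, by 0.29 (SE 0.18). Sums for this list were 7.20 to 9.79 in the wild type and 8.52 to 13.9 in the knockout, while Glycam1, a product of lymph node vessels, was well above background on no array. Of the 8 thymus markers 1, Dntt, was measured well enough to be tested, at -0.11 (SE 0.27), and Rag1, Rag2, Ptcra, Arpp21 and Psmb11 were well above background on no array. Of 7 natural killer cell markers 1 was higher and 6 were lower with a median of -0.09 (-0.04 blocked by scan day, 0.32 on day 1 and -0.36 on day 2), and their sums were 0.987 to 1.47 in the wild type and 1.16 to 1.27 in the knockout. All 12 neutrophil markers were lower with a median of -1.08, 3 of them at an unadjusted p of 0.05 in limma, but the median was 0.20 within day 1 and -2.51 within day 2. Their sums overlapped, at 86.3 to 305 in the wild type and 46.5 to 193 in the knockout. All 8 markers of lung epithelium and vessels were higher with a median of 0.17.

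Among the genes whose pattern over the 6 lungs was most like the mean of the 3 CD3 chains were Fam83g, Gramd1b, Bfsp2, Clps, Cops4, Cdnf and Igsf10, each with a Pearson r of 0.98. Of the 15345 genes ranked, 22 reached an r of 0.95, and with 6 arrays such values describe these lungs only. The mean of the CD3 chains was -2.08, -1.96 and -1.91 in wild type 11, 12 and 13, and -1.49, -2.10 and -1.64 in knockout 1, 11 and 12, so the ranking followed knockout 1 and knockout 12 against the rest.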

How the data were processed

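Total RNA of 6 lungs was amplified, labelled with Cy3 and run in 1 colour on Agilent arrays, as the labels' protocols state. Each deposited scanner file gives spot intensity, here a processed signal already background-subtracted by Agilent Feature Extraction, version 9.5.1.1 per the file headers and 9.1 per the submitters' processing notes. The authors' series matrix, used as an alternative, was read from its values as log2 intensities, with column medians of 8.087 to 8.090. All its 41174 rows matched a probe, and its values followed the scanner's mean spot signal (Spearman correlation over probes of 0.9995 to 0.9998). How it was scaled is unknown.

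Flagged spots (48 to 99 per array) were left out of 43379 non-control spots, replicate spots were averaged, and 30 probes dropped. Values are log2 signal relative to the 75th percentile signal, which lay between 1148 and 2488. Genes were named through RefSeq where possible (32719 probes), otherwise by the array files (8455). Each gene was given by its brightest probe, and was tested where that probe was well above background on at least 3 of 6 arrays. Probe positions are on mm7, as the array files give them, and promoter windows and gene positions are RefSeq's (GRCm38.p6).

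Genotypes were compared over all 20237 genes with limma 3.58.1 in R 4.3.3 (two-sided, Benjamini-Hochberg adjustment), with no covariates. The test was run on simulated data first. Scan day and slide were read from the file headers. Within a day 1 group holds a single lung, taken to vary as the other group does. Figures were drawn with matplotlib 3.10.9.

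The members and gene lists were chosen with earlier results of these data known. Named are all members with their probes, up to 4 receptor chain probes and up to 4 genes a list by smallest p, and the 8 genes most like the CD3 mean, with some of the genes so chosen not reported here. Alternatives covered scaling, background correction, the authors' values, the filter, the mean over probes, blocks, array weights and each lung left out. The chromosome 6 probe of Cd8b1 was added after seeing the data.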

Additional observations from a re-analysis of the deposited data

How the results depend on the processing

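In all 21 alternatives 0 of the 10 genes passed the adjusted threshold. Cd3d (0.35 to 0.59) and Cd3g (0.20 to 0.64) were higher in the knockout in all of them, and the median of the 10 ran from 0.02 to 0.28. The count at an unadjusted p of 0.05 was 0 under median scaling and within day 1, 2 within day 2 and with slide as a random block, 3 with array weights, and 0 to 1 with each lung left out. Genes past the adjusted threshold over the whole array numbered 2 under median scaling, slide as a random block and array weights, 1 under normexp, the authors' values and the trended, robust variance, and 0 to 1 with each lung left out.

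Signs turned for the other members, and the cause was not tested. Cd4 gave -0.049 under quantile normalization, -0.033 under median scaling, -0.018 under normexp, -0.015 on the authors' values, -0.0064 blocked by scan day, -0.26 on day 1, and -0.060 to 0.16 with each lung left out. Within day 1 Cd8a gave -0.095, Zap70 -0.14 and Cd8b1 minus Cd4 0.17. Within day 2 Cd3e gave 0.36 and Lck -0.25. Il7r gave -0.040 as the mean over its probes and -0.25 with array weights, where Cd28 gave -0.094. By its chromosome 6 probe Cd8b1 gave 0.36, and 0.33 relative to Cd4. With each lung left out Cd3e ran from -0.40 to 0.18, Cd8a from -0.019 to 0.31, Lck from -0.045 to 0.24 and Il7r from -0.13 to 0.22.

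The groups share the numbers 11 and 12. Deviations of the samples of 1 number correlated at -0.25 for 11 and 0.42 for 12, but the lungs numbered 11 were scanned on different days and those numbered 12 on the same day, so these values do not settle whether the numbers pair the lungs. No label states a pairing. With the replicate number as a block 0 members reached an unadjusted p of 0.05 in limma, and Lck gave -0.076, Cd28 -0.096 and Il7r -0.010. Knockout 1 and wild type 13 have no partner of the same number, so these differences rest on the lungs numbered 11 and 12.

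With 3 lungs a group the standard errors of the 10 genes ran from 0.19 to 0.38, and probes not well above background have only a bound.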
